A study of Homo sapiens with 27 samples.

Results

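The immediate early transcription factors FOS, FOSB, FOSL1, FOSL2, JUN, JUNB, JUND, EGR1, ATF3 and MYC were followed by RNA-seq and ribosome profiling in IMR90 cells, a diploid fibroblast line from human fetal lung. They were taken by gene symbol, and each symbol matched 1 Ensembl gene ID, so they make up 10 of the 60534 gene IDs found in every count file. All 10 passed the low-count filter in both assays, among 13293 protein-coding genes tested in RNA-seq and 11766 in Ribo-seq. Ribo-seq sequences the stretches of mRNA that ribosomes shield from RNase, so a gene's Ribo-seq count depends on its mRNA level and on how many ribosomes sit on that mRNA.

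Cells were compared in 5 states, and all libraries are labelled as the IMR90 line, with a wild-type genotype given for all but the thapsigargin libraries. Cycling cells were untreated and harvested at 40 to 60% confluency (2 RNA-seq and 3 Ribo-seq libraries). Quiescent cells had been arrested by contact inhibition (3 and 3). Irradiated cells had received 15 Gy of ionizing radiation and were harvested as senescent cells after 10 days (3 and 3). Etoposide cells had been given 3 treatments with 50 µM etoposide, a topoisomerase II poison, over 10 days and were senescent at harvest (3 and 3). Thapsigargin cells were cycling cells at the same confluency that received 25 nM thapsigargin, an inhibitor of the calcium pump of the endoplasmic reticulum, for 3 h (2 and 2). The medium held 10% serum in every state, and the labels list antibiotics and antimycotics for all states except thapsigargin. Every value comes from 1 cell line, and nothing in the labels says that replicates were separate cultures, so the p-values measure the spread between these libraries, which may be technical.

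FOS and JUN proteins pair through leucine zippers to form AP-1, a dimer that binds DNA and drives genes of proliferation, matrix turnover and inflammation. The genes of several members are switched on within minutes of serum, growth factors or stress without new protein synthesis, and many of their mRNAs are short-lived. Fibroblasts given serum after starvation are the textbook setting of this response, and in senescent fibroblasts AP-1 is known as a factor at enhancers of secretory genes.

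Counts assigned to genes ranged from 20635503 to 57119841 per RNA-seq library and from 1936976 to 19996104 per Ribo-seq library, with the lowest Ribo-seq depth in the thapsigargin libraries. Levels are given as CPM, counts per 1000000 counts of the tested genes after TMM scaling. The thapsigargin libraries stood apart technically: unmapped reads were 1.35 to 1.40% of reads in their RNA-seq against 27.8 to 40.6% in the others. In their Ribo-seq, multimapping reads were 65.2 to 66.9% against 19.8 to 31.9% in the others, and uniquely mapped reads outside any gene 11.3 to 12.6% against 1.35 to 2.77%. The part of these differences in the footprint and translational efficiency results was not tested. Their Ribo-seq counts also follow another gene list than the other Ribo-seq libraries, and they have no untreated library with the same features, so treatment and library set cannot be told apart in any thapsigargin comparison. All 12 fibroblast markers were found, with summed levels of 10050 to 16779 CPM over the RNA-seq libraries. By the calls defined below, 8 of the 12 were lower with thapsigargin in RNA-seq, beside 12.8% of all genes. Their median log2 fold change was -0.98, beside -0.03 over all genes. In Ribo-seq 10 of the 12 were called lower (23.6% of all genes) and 1 higher (21.1%), with a median of -2.06 beside -0.08. Their summed Ribo-seq level was 39215 to 41258 CPM in cycling, 13599 to 14274 CPM in thapsigargin and 23837 to 26215 CPM in irradiated cells. The 6 immune markers were low but highest after etoposide, at 1.40 to 1.73 CPM against 0 to 0.292 CPM in cycling RNA-seq and 1.92 to 3.41 CPM against 0.106 to 0.308 CPM in Ribo-seq. Endothelial markers summed to 57.4 to 90.2 CPM in etoposide RNA-seq libraries against 18.2 to 24.4 CPM in cycling ones, and epithelial markers to 171 to 184 CPM with thapsigargin against 109 to 140.1 CPM. Of the 6 endothelial markers, CDH5, CLDN5 and PECAM1 had 0 counts in cycling RNA-seq and none was at 0 in etoposide RNA-seq. In Ribo-seq PECAM1 was at 0 in cycling and CLDN5 in etoposide cells. The epithelial marker CDH1 had 0 counts in cycling cells. The part of these markers in the results was not tested.

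Calls were made where edgeR's quasi-likelihood test gave an adjusted p under 0.05, with Benjamini-Hochberg adjustment over all genes tested. After thapsigargin, 6 of the 10 genes changed in RNA-seq, where 24.5% of all genes were called, and all 6 rose, in a direction taken by 11.7% of all genes. In Ribo-seq 6 changed, beside 44.6% of all genes, with 4 higher (21.1% of all genes) and 2 lower (23.6%). The median log2 fold change of the 10 genes was 0.77 in RNA-seq, beside -0.03 over all genes, and 0.48 in Ribo-seq, beside -0.08. The Ribo-seq median stayed at 0.48 with FOS, which had no footprints there, set at its detection bound.

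Fewer of the 10 were called in quiescent and senescent cells against cycling cells. In RNA-seq 1 was called in quiescence (15.6% of all genes, 5.18% higher and 10.4% lower), 1 after irradiation (34.9%, 16.2% higher and 18.8% lower) and 3 after etoposide (34.6%, 16.8% higher and 17.8% lower). The Ribo-seq counts were 2 in quiescence (22.4%, 8.15% higher and 14.2% lower), 2 after irradiation (40.5%, 19.0% higher and 21.6% lower) and 3 after etoposide (33.9%, 16.8% higher and 17.1% lower). The members' medians there lay between 0.11 and 0.39. All 4 comparisons with cycling cells share the cycling libraries. In bulk libraries, fewer cells expressing a gene and less RNA per cell cannot be told apart.

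Between irradiated and etoposide cells, 2 of the 10 differed in RNA-seq (22.6% of all genes, 9.67% higher in irradiated cells and 12.9% lower) and 1 in Ribo-seq (22.5%, 8.82% higher and 13.7% lower). Irradiated cells differed from quiescent cells in 2 members in RNA-seq (18.7%, 9.01% higher and 9.70% lower) and in 1 in Ribo-seq (14.6%, 7.22% higher and 7.33% lower). Etoposide cells differed from quiescent cells in 4 members in RNA-seq (41.7%, 21.1% higher and 20.6% lower) and in 3 in Ribo-seq (35.8%, 19.0% higher and 16.8% lower). Outside thapsigargin the share of members called was thus near or below that of all genes.

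**Figure D1:**
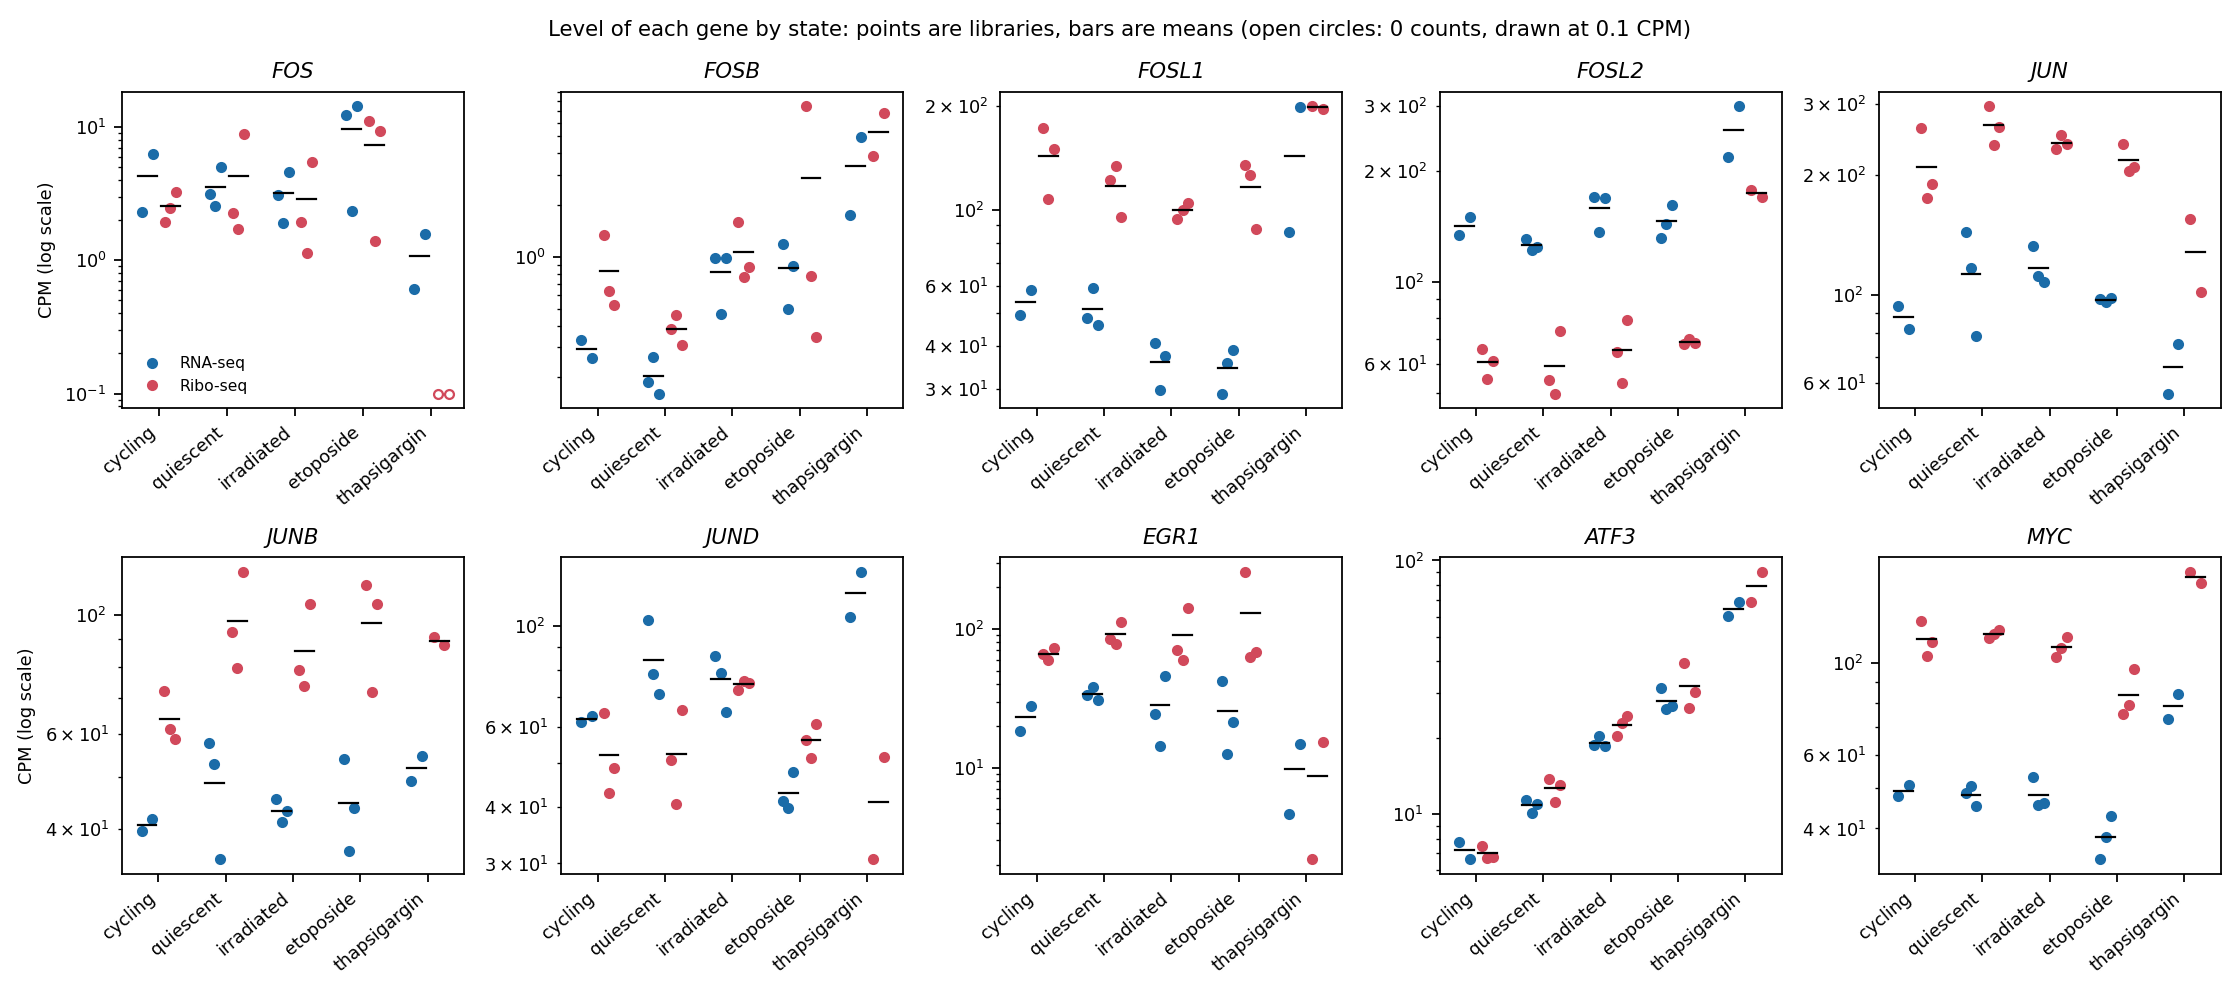
Level of each of the 10 genes in CPM (log scale, a separate axis per gene) in the 5 states; each point is 1 library, blue for RNA-seq and red for Ribo-seq, black bars are means and open circles mark 0 counts. ATF3 climbs from cycling (mean 7.19 CPM in RNA-seq) through quiescent, irradiated and etoposide to thapsigargin cells (64.5 CPM), while EGR1 and FOS scatter widely among the etoposide libraries and have their lowest means with thapsigargin.

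ATF3, a factor of the ATF/CREB family that the integrated stress response and DNA damage induce, was the member called in every RNA-seq comparison made. Its RNA-seq level was 7.74 and 6.64 CPM in the cycling libraries and 11.4, 10.1 and 11.0 CPM in the quiescent ones. It was 18.7, 20.3 and 18.5 CPM in irradiated cells, 31.5, 25.8 and 26.6 CPM in etoposide cells, and 60.3 and 68.7 CPM with thapsigargin. No library of one state overlapped another state, and the order of the means was cycling, quiescent, irradiated, etoposide, thapsigargin. The log2 fold change against cycling cells was 0.59 ± 0.15 (SE) in quiescence (edgeR adjusted p = 0.016), 1.41 ± 0.15 after irradiation (1e-05), 1.95 ± 0.15 after etoposide (4e-07) and 3.16 ± 0.16 after thapsigargin (9.6e-08). The last of these is an 8.95-fold increase. The call in quiescence rested on both cycling libraries: without cycling replicate 1 the adjusted p was 0.062, without replicate 2 it was 0.156, and in a fit restricted to the compared groups it was 0.127.

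Footprints on ATF3 followed the same order of means. They were 7.50, 6.71 and 6.77 CPM in cycling, 13.8, 11.2 and 13.01 CPM in quiescent, and 20.4, 22.8 and 24.3 CPM in irradiated cells. Etoposide libraries gave 39.4, 26.2 and 30.2 CPM, and thapsigargin libraries 68.5 and 90.3 CPM, again with no overlap between states. Against cycling cells, the log2 fold changes in footprints were 0.86 ± 0.18 in quiescence (edgeR adjusted p = 0.0046), 1.68 ± 0.19 after irradiation (1.6e-05), 2.19 ± 0.19 after etoposide (7.8e-07) and 3.50 ± 0.21 after thapsigargin (5.5e-08). ATF3 was also higher in both senescent states than in quiescent cells, by 0.82 ± 0.13 in irradiated (adjusted p = 0.00053) and 1.37 ± 0.13 in etoposide RNA-seq (3.1e-06). In Ribo-seq these differences were 0.82 ± 0.18 (0.0077) and 1.33 ± 0.17 (7.1e-05). Its translational efficiency, the ratio of footprints to mRNA tested as an interaction of assay and state, was not called in any comparison, and after thapsigargin it differed by 0.29 ± 0.27 (adjusted p = 0.46).

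The ATF3 gene lies on chromosome 1 (positions 212565407 to 212620777, GRCh38.p14) and has several annotated starts. The 250 bases before its upstream start (chr1:212565157-212565406, plus strand, RefSeq) are shown because ATF3 rose with each stress and its known activators ATF4 and CHOP bind CARE elements, written TGATGNAA. Capitals mark the 1 match in this window, at bases -191 to -184 from the start.
ATF3 upstream start: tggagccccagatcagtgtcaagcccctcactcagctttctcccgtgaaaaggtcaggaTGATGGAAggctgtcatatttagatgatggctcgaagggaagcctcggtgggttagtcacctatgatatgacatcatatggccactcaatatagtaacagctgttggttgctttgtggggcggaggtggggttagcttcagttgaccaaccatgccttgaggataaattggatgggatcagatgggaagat
A CARE motif occurs in 3.14% of the 35116 RefSeq promoter windows of this length, counting both strands. The match is a description of the sequence and does not show binding. A window before a downstream ATF3 start (chr1:212614768-212615017, plus strand) was also searched. It held no CARE motif and 1 TATA box, at bases -230 to -225. Which start these cells use was not tested.

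FOS is the short-lived partner of JUN that serum induces within minutes. Its mRNA was low in every state, at 2.30 and 6.33 CPM in cycling, 3.14, 2.57 and 5.00 CPM in quiescent, and 3.11, 1.92 and 4.598 CPM in irradiated libraries. Etoposide libraries split, with 12.4 and 14.4 CPM in replicates 1 and 3 but 2.33 CPM in replicate 2. The thapsigargin libraries held 0.610 and 1.56 CPM, below every other library. The log2 difference of FOS between thapsigargin and cycling cells was -1.93 ± 0.76, which did not pass the test (edgeR adjusted p = 0.084). The etoposide difference of 1.19 ± 0.66 did not pass either (0.18), and without etoposide replicate 2 it was 1.66 with an adjusted p of 0.0319.

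FOS footprints showed the same split among the etoposide libraries. Whether same-numbered libraries of both assays came from the same cells is not given, so this may not be a separate observation. The footprints were 1.95, 2.47 and 3.28 CPM in cycling, 2.25, 1.73 and 8.86 CPM in quiescent, 1.95, 1.14 and 5.51 CPM in irradiated, and 11.2, 1.39 and 9.32 CPM in etoposide cells. No FOS footprint was counted in either thapsigargin library. Set against a floor of 3 counts over both libraries, 0.804 CPM, the level was at least 3.19-fold lower than the cycling mean of 2.57 CPM, a bound that covers counting error only. A count of 0 was rare among better covered genes. Of 9551 tested genes with at least 5 CPM in cycling Ribo-seq and in thapsigargin RNA-seq, 31 had 0 footprints in both thapsigargin libraries. FOS, at means of 2.57 and 1.09 CPM, lay under both limits. That set therefore does not show how common a 0 is at the level of FOS. Across etoposide and cycling libraries the footprint difference of FOS was 1.49 ± 0.74 (edgeR adjusted p = 0.14), and the groups overlapped.

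EGR1 is a zinc-finger factor whose gene the serum response factor controls. Its mRNA was 18.4 and 27.7 CPM in cycling, 33.5, 38.3 and 30.8 CPM in quiescent, and 24.5, 14.4 and 46.2 CPM in irradiated cells. It was 42.5, 12.6 and 21.4 CPM in etoposide cells and 4.61 and 14.9 CPM with thapsigargin. Both thapsigargin values lay below both cycling values, yet the log2 difference of -1.22 ± 0.60 did not pass the test (edgeR adjusted p = 0.16). It was -0.61 without thapsigargin replicate 1, and -2.30 and called without replicate 2 (adjusted p = 0.0406).

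EGR1 footprints fell with thapsigargin. They were 65.9, 60.2 and 72.9 CPM in cycling and 2.19 and 15.2 CPM in thapsigargin libraries, which rest on 4 and 29 counts. The log2 fold change was -2.91 ± 0.80 (edgeR adjusted p = 0.01). Without thapsigargin replicate 1 the call was lost, at -2.16 with an adjusted p of 0.109, and without replicate 2 the value was -4.92. The change in translational efficiency, -1.73 ± 1.07, was not called (adjusted p = 0.26). In the other states the footprints were 84.0, 78.5 and 112 CPM (quiescent), 70.6, 59.7 and 143 CPM (irradiated), and 259, 62.9 and 68.7 CPM (etoposide). Etoposide replicate 1 alone set the etoposide mean apart: the log2 difference from cycling cells was 0.97 ± 0.48 (adjusted p = 0.14) with it and -0.02 without it.

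The windows before the starts of EGR1 and FOS are shown because both genes had their lowest mean level with thapsigargin and are textbook targets of the serum response factor, which binds CArG boxes. EGR1 lies on chromosome 5 (138465479 to 138469303) and its window is chr5:138465229-138465478, plus strand. FOS lies on chromosome 14 (75278828 to 75282230) and its window is chr14:75278578-75278827, plus strand. Both are from RefSeq on GRCh38.p14, and capitals mark the CArG boxes of EGR1 and the TATA box (TATAAA) of FOS.
EGR1: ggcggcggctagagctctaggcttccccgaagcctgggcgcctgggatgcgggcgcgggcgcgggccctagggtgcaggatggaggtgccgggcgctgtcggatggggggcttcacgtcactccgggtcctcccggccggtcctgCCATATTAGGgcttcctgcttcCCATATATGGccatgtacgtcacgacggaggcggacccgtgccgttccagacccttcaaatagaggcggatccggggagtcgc
FOS: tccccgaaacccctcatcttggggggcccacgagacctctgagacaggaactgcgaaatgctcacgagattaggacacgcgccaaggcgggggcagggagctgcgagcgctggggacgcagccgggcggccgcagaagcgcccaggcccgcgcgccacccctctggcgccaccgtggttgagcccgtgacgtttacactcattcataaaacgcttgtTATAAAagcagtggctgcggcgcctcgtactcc
The EGR1 window holds 2 CArG boxes, at bases -105 to -96 and -83 to -74 from the start, and 1.16% of all windows hold at least 1. The FOS window has its TATA box at bases -33 to -28 and no CArG box within these 250 bases, a statement about these letters alone. A TATA box on either strand occurs in 10.7% of all windows, and FOSB and JUNB have theirs at bases -30 to -25 and -31 to -26.

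**Figure D2:**
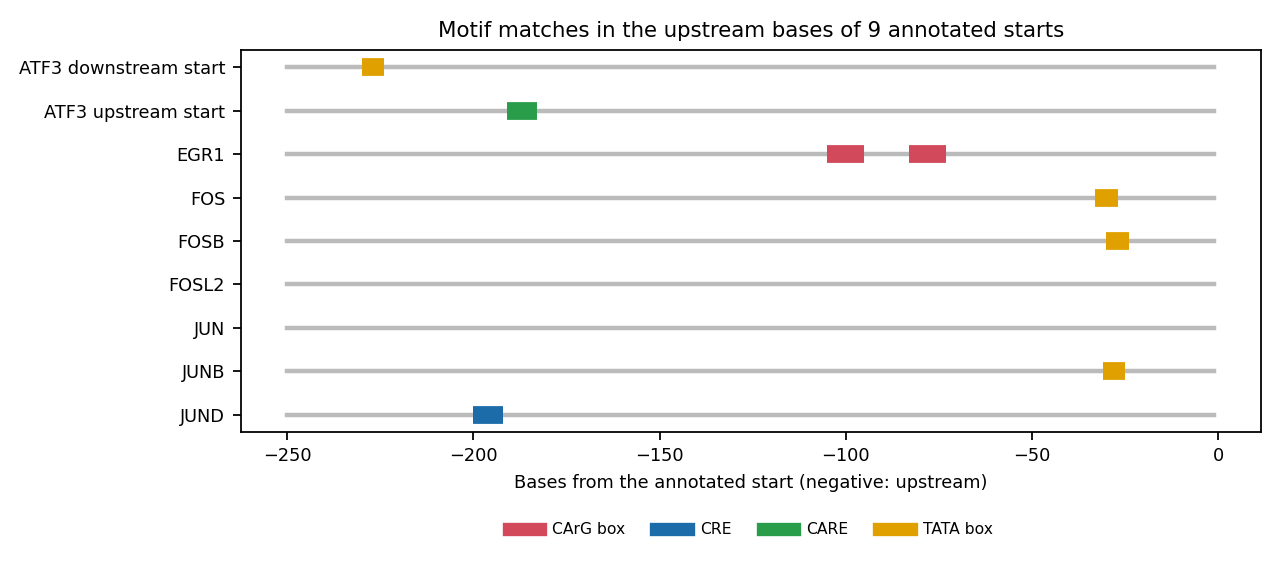
Positions of motif matches in the 250 bases before 9 annotated starts of 8 members, in bases from the start; grey lines are the windows searched and coloured blocks the matches to the CArG box, CRE, CARE and TATA box. EGR1 has 2 CArG boxes, FOS, FOSB and JUNB have a TATA box close to the start, and JUN and FOSL2 have no match.

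FOSB, a FOS relative whose full-length form activates transcription, had the fewest RNA-seq reads of the 10 outside thapsigargin, with 4 to 34 RNA-seq counts per library outside thapsigargin. Its mRNA was 0.329 and 0.259 CPM in cycling and 1.76 and 4.97 CPM in thapsigargin libraries, with no overlap. The log2 fold change was 3.49 ± 0.61 (edgeR adjusted p = 0.0013). Quiescent cells had 0.187, 0.264 and 0.161 CPM, irradiated cells 0.986, 0.469 and 0.982 CPM, and etoposide cells 1.19, 0.502 and 0.890 CPM. All 6 senescent libraries thus lay above all quiescent and cycling ones. The difference from quiescent cells was called, at 2.04 ± 0.56 for etoposide (adjusted p = 0.01) and 1.97 ± 0.57 for irradiation (0.03). The latter call was lost without any of 5 of the 6 libraries compared, with adjusted p from 0.0579 to 0.0932. Against cycling cells the senescent differences were 1.51 ± 0.62 (0.077) and 1.44 ± 0.63 (0.096), which did not pass.

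FOSB footprints were few, at 1.34, 0.636 and 0.529 CPM in cycling cells and 3.83 and 6.82 CPM after thapsigargin, from 7 and 13 counts. The increase of 2.68 ± 0.97 was called (edgeR adjusted p = 0.037). It was lost without either thapsigargin library (adjusted p = 0.0841 and 0.249) and without cycling replicate 2 or 3 (0.087 and 0.0834). Etoposide libraries held 7.50, 0.775 and 0.345 CPM, so their higher level than in quiescent cells (2.85 ± 0.81, adjusted p = 0.014) came from replicate 1. Without that library the difference was 0.57 and the adjusted p 0.574.

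FOSL1, or FRA-1, lacks the strong activation domain of FOS and is itself an AP-1 target. Its mRNA was 49.3 and 58.2 CPM in cycling, 48.2, 59.1 and 46.0 CPM in quiescent, 40.9, 29.7 and 37.3 CPM in irradiated and 29.0, 35.6 and 38.9 CPM in etoposide cells. With thapsigargin it was 86.1 and 199.7 CPM, above all others but unequal. The log2 fold change of 1.41 ± 0.30 was called (edgeR adjusted p = 0.0045). It missed the threshold without cycling replicate 1 (0.0516) and in a fit restricted to the compared groups (0.058). Without thapsigargin replicate 2 the value dropped to 0.70, still called.

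Footprints on FOSL1 were more even, at 173, 108 and 150.0 CPM in cycling and 200.4 and 197 CPM in thapsigargin libraries. The difference of 0.47 ± 0.21 did not pass the test (edgeR adjusted p = 0.081). Translational efficiency differed by -0.99 ± 0.38, which did not pass either (0.067), and by -0.24 to -1.43 over the alternatives tried. In irradiated cells the footprints fell to 94.2, 99.6 and 105 CPM, a log2 change of -0.53 ± 0.19 (adjusted p = 0.037), with no overlap with the cycling libraries. That call was lost when cycling replicate 1 or 3, or any irradiated library, was left out (adjusted p from 0.0662 to 0.126).

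FOSL2, or FRA-2, is the FOS relative with later and longer expression. It rose with thapsigargin in both assays. Its mRNA was 134 and 150.4 CPM in cycling and 218 and 300.1 CPM in thapsigargin cells, an increase of 0.86 ± 0.16 in log2 (edgeR adjusted p = 0.0021). Footprints rose from 66.1, 54.6 and 61.1 CPM to 178 and 171 CPM, by 1.53 ± 0.17 (1.7e-05). The gain in translational efficiency of 0.61 ± 0.24 did not pass (0.076), and DESeq2 called it at 0.0371. In quiescent and senescent cells FOSL2 stayed between 122 and 170.4 CPM in RNA-seq and between 49.9 and 78.8 CPM in Ribo-seq, and no difference from cycling cells was called.

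JUN, the main dimer partner of FOS, was, with EGR1, a member whose footprints fell with thapsigargin. Its mRNA was 93.6 and 82.0 CPM in cycling and 56.5 and 75.4 CPM in thapsigargin cells, a difference of -0.41 ± 0.22 that was not called (edgeR adjusted p = 0.2). Footprints fell from 262, 175 and 189 CPM to 155 and 101 CPM, by -0.70 ± 0.19 (0.0098). Without thapsigargin replicate 2 the change was -0.44 and the call was lost (0.105), as in a fit restricted to the compared groups (0.0576). JUN mRNA was 144, 117 and 78.6 CPM in quiescent, 132, 111 and 108 CPM in irradiated and 97.7, 95.8 and 98.1 CPM in etoposide cells. None of these differed from cycling cells by the test, and the difference in quiescence, 0.36 ± 0.20 (0.27), was called when quiescent replicate 3 was left out (0.57, adjusted p = 0.0286). Footprints in those states were 204 to 297 CPM and overlapped the cycling libraries.

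JUNB, a weaker activator that can oppose JUN, was even across states in mRNA, from 35.2 to 57.8 CPM over all 13 libraries. Its thapsigargin differences were 0.35 ± 0.21 in RNA-seq (edgeR adjusted p = 0.26) and 0.48 ± 0.22 in Ribo-seq (0.092). Footprints were 72.0, 61.3 and 58.6 CPM in cycling, 92.7, 79.4 and 120.1 CPM in quiescent and 114, 71.7 and 105 CPM in etoposide cells. They rose by 0.61 ± 0.19 in quiescence (0.032) and by 0.59 ± 0.19 after etoposide (0.026), where replicate 2 overlapped the cycling libraries. The quiescence call was lost without any cycling library or quiescent replicate 3, and in a fit restricted to the compared groups, with adjusted p from 0.0508 to 0.12. The etoposide call was lost without cycling replicate 2 or 3 or etoposide replicate 1 or 3, with adjusted p from 0.079 to 0.128. Irradiated cells, at 78.7, 73.7 and 105 CPM, differed from cycling cells by 0.42 ± 0.19, which did not pass (0.095).

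JUND is the JUN relative expressed at rest, known to restrain proliferation in fibroblasts, and the member whose mRNA and footprints parted with thapsigargin. Its mRNA rose from 61.4 and 63.3 CPM in cycling to 105 and 132 CPM in thapsigargin cells, by 0.92 ± 0.19 (edgeR adjusted p = 0.0036). Its footprints were 64.5, 43.0 and 48.6 CPM against 30.7 and 51.4 CPM, an overlapping pair of groups with a difference of -0.34 ± 0.25 (0.29). Translational efficiency fell by 1.31 on the log2 scale, with SE 0.33 and adjusted p = 0.0065, in a comparison where 20.7% of all genes were called. This was the 1 member called there, and it was called in 15 of 15 alternatives, with values from -1.78 to -1.01. No member was called for translational efficiency in quiescent (0.00854% of all genes), irradiated (0.0512%) or etoposide cells (0.0683%) against cycling, or between the senescent states (0%). Among the 10 genes, 1 had an unadjusted p under 0.05 in etoposide cells and 0 in the other comparisons outside thapsigargin, and DESeq2 called 0. Over all genes, the comparison of the senescent states counted 770 at an unadjusted p under 0.05 in edgeR, and DESeq2 called 6. Outside thapsigargin every such ratio joins the longer gene list of the RNA-seq files with the shorter list of the Ribo-seq files. The thapsigargin ratio uses the longer list in both assays, so its comparison with cycling cells, where JUND was called, crosses the lists. No alternative changed the lists, and their part was not tested.

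JUND mRNA also set the senescent states apart. It was 86.1, 79.0 and 64.6 CPM in irradiated and 41.2, 39.7 and 47.8 CPM in etoposide cells, without overlap, a log2 difference of 0.83 ± 0.16 between irradiated and etoposide cells (edgeR adjusted p = 0.002). Quiescent cells had 103, 78.4 and 71.0 CPM, and etoposide cells were lower by 0.97 on that scale, with SE 0.16 (0.00028). The fall from cycling to etoposide cells, -0.54 ± 0.17 (0.027), was lost when either cycling library or etoposide replicate 1 or 2 was left out (adjusted p from 0.0691 to 0.121). JUND footprints were 72.5, 75.6 and 75.1 CPM in irradiated and 56.2, 51.3 and 60.8 CPM in etoposide cells. They did not overlap and lay in the same direction as the mRNA, yet the difference of 0.41 ± 0.20 did not pass the test (edgeR adjusted p = 0.18). A fit restricted to the compared groups called it, at 0.36 with an adjusted p of 0.00632.

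The JUND window is shown because its mRNA rose with thapsigargin and it alone among the 9 windows held a full cAMP response element, CRE, written TGACGTCA. JUND lies on chromosome 19 (18279694 to 18281622, GRCh38.p14) and its window is chr19:18281623-18281872, minus strand, from RefSeq. Capitals mark the CRE at bases -200 to -193 from the start.
JUND: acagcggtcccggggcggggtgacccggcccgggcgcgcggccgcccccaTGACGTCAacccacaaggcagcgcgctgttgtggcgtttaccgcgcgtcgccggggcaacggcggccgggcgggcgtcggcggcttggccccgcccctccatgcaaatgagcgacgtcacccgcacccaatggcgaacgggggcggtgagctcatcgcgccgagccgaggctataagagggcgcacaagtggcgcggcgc
A CRE occurs in 1.65% of all windows. The AP-1 site TGACTCA, present in 4.20% of them, was found in none of the 9 windows.

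**Figure D3:**
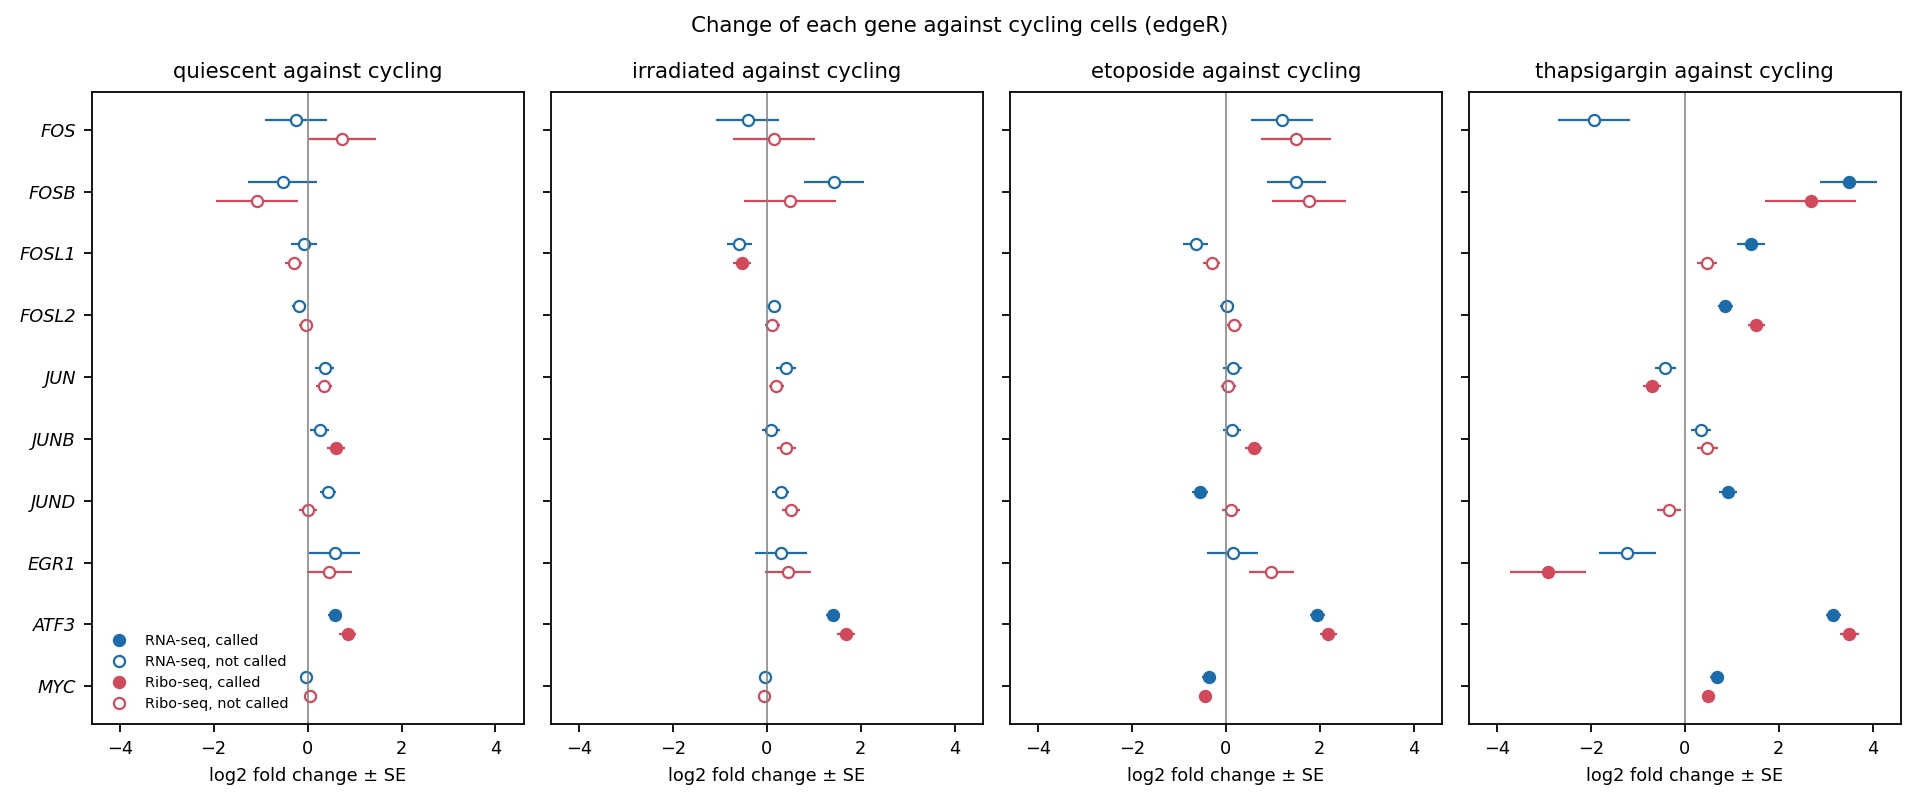
Log2 fold change ± SE (edgeR) of each gene against cycling cells in the 4 other states, blue for RNA-seq and red for Ribo-seq and filled points have an adjusted p under 0.05. ATF3 is filled in both assays in all 4 panels, and 6 genes are filled in each assay with thapsigargin; the FOS footprint change with thapsigargin is not drawn because both libraries had 0 counts.

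MYC, the helix-loop-helix factor that drives ribosome production and growth, rose with thapsigargin and was lower after etoposide. Its mRNA was 47.8 and 50.7 CPM in cycling and 73.3 and 84.1 CPM in thapsigargin cells, an increase of 0.68 ± 0.14 in log2 (edgeR adjusted p = 0.0042). Footprints rose from 126, 104 and 112 CPM to 165 and 155 CPM, by 0.49 ± 0.12 (0.0052). Neither assay overlapped between these groups, and translational efficiency differed by -0.23 ± 0.19 (0.41). In etoposide cells the mRNA was 33.8, 38.1 and 42.8 CPM and the footprints 75.5, 79.3 and 96.5 CPM, all below the cycling libraries. The changes were -0.37 ± 0.13 in RNA-seq (0.043) and -0.44 ± 0.11 in Ribo-seq (0.0057).

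The MYC footprint fall after etoposide was called in 12 of 12 alternatives, and its mRNA fall in 4 of 11. The mRNA call was lost without either cycling library (adjusted p = 0.117 and 0.204), without etoposide replicate 1 or 2 (0.147 and 0.101) with DESeq2 size factors (0.0561) and without the low-count filter (0.0773). Against quiescent cells the etoposide values were lower by 0.33 in mRNA (SE 0.12, edgeR adjusted p = 0.035) and by 0.49 in footprints (SE 0.11, 0.0031). The first of these was called in 5 of 12 alternatives, and was lost without quiescent replicate 1 or 2 or etoposide replicate 1 or 2 (0.0765 to 0.145). Irradiated cells, at 53.2, 45.5 and 46.0 CPM in mRNA and 103, 108 and 115 CPM in footprints, had more MYC footprints than etoposide cells, by 0.38 ± 0.11 (0.024). That call was lost when any of 5 of the 6 libraries was left out, with adjusted p from 0.0589 to 0.152. In mRNA the difference was 0.33 ± 0.12 and did not pass (0.056). Quiescent cells, at 48.6, 50.7 and 45.3 CPM in mRNA and 115, 117 and 119.8 CPM in footprints, did not differ from cycling cells by the test.

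**Figure D4:**
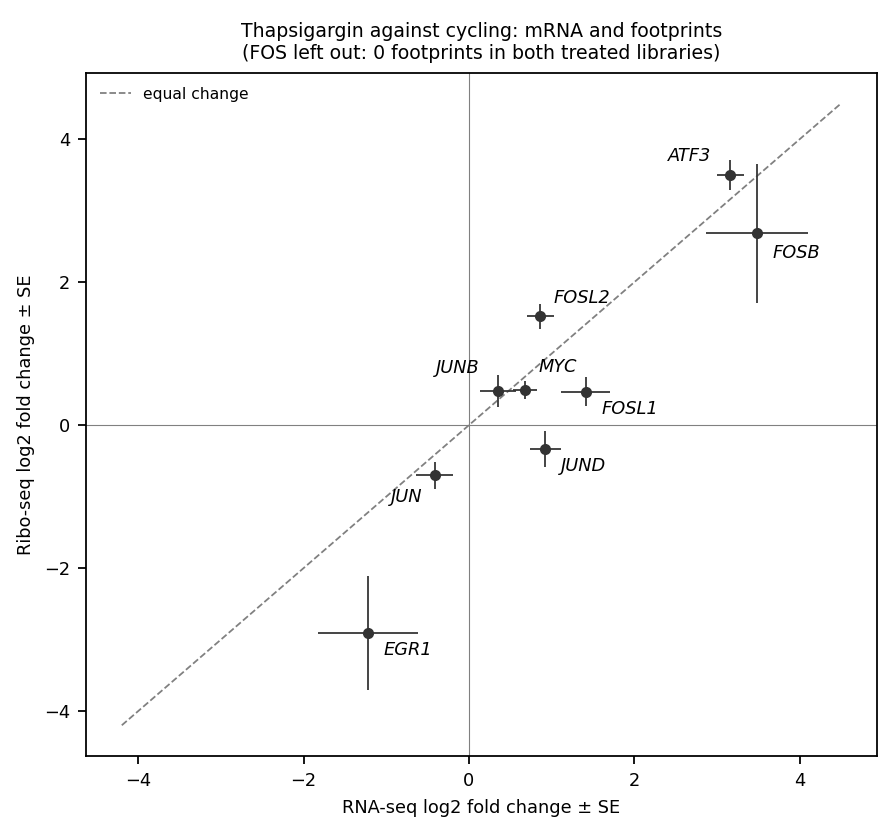
Log2 fold change of mRNA (horizontal, RNA-seq) against footprints (vertical, Ribo-seq), thapsigargin against cycling cells, each point 1 gene with SE bars; the dashed line marks equal change. JUND (0.92 in mRNA, -0.34 in footprints) and FOSL1 (1.41, 0.47) lie below the line, FOSL2 (0.86, 1.53) above it, and EGR1 (-1.22, -2.91) at the lower left; FOS is left out because it had 0 footprints.

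The wider early response shared the rise with thapsigargin in most called genes. Of 37 other early response genes, 35 were tested and 20 were called after thapsigargin in RNA-seq, 18 of them higher, with a median of 0.73. Over all genes 24.5% were called, 11.7% higher, with a median of -0.03. The orphan nuclear receptors NR4A3 (3.33 ± 0.60, edgeR adjusted p = 0.0014) and NR4A2 (3.18 ± 0.61, 0.0023) and the zinc-finger factor KLF4 (2.69 ± 0.23, 4.3e-06) rose most. In Ribo-seq 21 of 35 were called, 17 higher, beside 44.6% of all genes called and 21.1% higher. NR4A3 footprints rose by 4.22 ± 0.59 (0.000102) and those of NR4A2 by 3.57 ± 0.58 (0.0003). DUSP5, a nuclear ERK phosphatase, had 0 footprints in both thapsigargin libraries although its mRNA averaged 63.8 CPM there, at least 24.8-fold below the cycling footprint mean of 19.9 CPM.

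With etoposide, 10 of the 35 early response genes were called in RNA-seq, or 28.6%, below the 34.6% of all genes, and 8 of the 10 were higher. The ERK phosphatases DUSP4 (2.88 ± 0.26, edgeR adjusted p = 2e-06) and DUSP6 (2.32 ± 0.20, 1.5e-06) led, with NR4A2 (1.89 ± 0.56, 0.019). Between irradiated and etoposide cells 13 of 35 were called (37.1%, beside 22.6% of all genes), 11 of them lower in irradiated cells, among them NR4A2 (-2.32 ± 0.49, 0.0044), DUSP4 (-1.96 ± 0.21, 7.6e-05) and the growth factor HBEGF (-1.90 ± 0.29, 0.00058). EGR2, a zinc-finger relative of EGR1, was higher than in cycling cells in quiescent (2.69 ± 0.66, 0.014) and irradiated RNA-seq (2.14 ± 0.66, 0.022). Its footprints were called higher in quiescent (3.23 ± 0.48, edgeR adjusted p = 0.00068), irradiated (2.80 ± 0.53, 0.00088) and etoposide cells (2.46 ± 0.51, 0.0022).

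Among 25 dimer partners and relatives of the AP-1, ATF and CREB families, 24 were tested in RNA-seq and 13 were called after thapsigargin, 10 of them higher (24.5% of all genes called, 11.7% higher). MAF rose by 3.99 ± 0.46 (edgeR adjusted p = 5.6e-05) and DDIT3, which encodes CHOP, by 3.44 ± 0.16 (6.3e-08). DDIT3 footprints rose by 5.18 ± 0.25 (9.4e-09). MAF footprints were called higher after irradiation (2.17 ± 0.66, edgeR adjusted p = 0.017) and thapsigargin (2.24 ± 0.86, 0.047). In RNA-seq MAF was also higher in quiescent (2.66 ± 0.47, 0.0025), irradiated (3.63 ± 0.45, 4.4e-05) and etoposide cells (2.11 ± 0.47, 0.0039). The small MAF proteins MAFK (1.35 ± 0.16, 2.3e-05) and MAFF (1.09 ± 0.14, 6.6e-05), which lack an activation domain, were among the 10 that rose of 15 called with etoposide (34.6% of all genes called, 16.8% higher).

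Of 21 upstream kinases and serum response factor cofactors, 8 were called after thapsigargin in RNA-seq, 7 of them higher (24.5% of all genes called, 11.7% higher). The footprints did not share this rise. In Ribo-seq 8 of the 21 were called, or 38.1% beside 44.6% of all genes, with 3 higher and 5 lower and a median of 0.06. In mRNA, MAP2K3 (2.48 ± 0.43, edgeR adjusted p = 0.0011) and MAP2K6 (-1.30 ± 0.22, 0.00097), which phosphorylate p38, moved in opposite directions. MAP2K6 was also lower after etoposide (-2.71 ± 0.20, 3.4e-07) and irradiation (-0.98 ± 0.20, 0.0017). ELK3, an ETS partner of the serum response factor, was lower in mRNA after etoposide (-0.95 ± 0.10, 8.2e-06). Its footprints were lower after both irradiation (-1.01 ± 0.19, edgeR adjusted p = 0.00086) and etoposide (-1.19 ± 0.18, 0.00021).

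Of 15 genes listed as AP-1 targets, most differed between the senescent states. Of 13 tested, 9 were called after etoposide in RNA-seq and all 9 were higher, with a median over the 13 of 1.51 beside 0.00 over all genes, of which 34.6% were called and 16.8% were higher. MMP3, a stromelysin, rose by 6.04 ± 0.77 (edgeR adjusted p = 4.8e-05), the chemokine CXCL8 by 4.91 ± 0.76 (0.00024) and CCL2 by 2.50 ± 0.20 (6.5e-07). Irradiated cells had 8 called (34.9% of all genes), 4 in each direction, with a median of -0.63. There the collagenase MMP1 fell by 2.50 (SE 0.25, 5.7e-06), PLAUR by 1.79 (SE 0.25, 0.00011), and cyclin D1 (CCND1) rose by 1.98 ± 0.15 (6.4e-07). Compared directly, 11 of 13 were lower in irradiated than in etoposide cells (22.6% of all genes called, 12.9% lower), with MMP3 at -7.01 ± 0.69 (5.8e-05) and CXCL8 at -5.53 ± 0.65 (0.00015). With thapsigargin 4 of the 13 were higher and 2 lower in RNA-seq (24.5% of all genes called), with CXCL8 at 3.29 ± 0.73 (0.0057) and TIMP1 at -1.63 ± 0.19 (6.8e-05). In Ribo-seq 3 of the 13 were called higher and 3 lower, beside 21.1% and 23.6% of all genes. After etoposide, JUNB footprints were called higher than in cycling cells (0.59 ± 0.19, edgeR adjusted p = 0.026). JUND mRNA was called lower (-0.54 ± 0.17, 0.027), and no other FOS or JUN gene was called there in either assay. The part of these genes in the target changes was not tested.

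In the network around MYC, 12 of 13 genes were tested in RNA-seq. The MYC antagonist MXD1 was higher than in cycling cells in all 4 states, by 0.90 ± 0.15 in quiescence (edgeR adjusted p = 0.002), 1.11 ± 0.15 after irradiation (0.0001), 1.07 ± 0.15 after etoposide (0.00012) and 1.72 ± 0.16 after thapsigargin (1.4e-05). MXD3, the family member expressed in dividing cells, fell by 3.05 in both senescent states (SE 0.40 and 0.39). Of 22 MYC target genes tested, 8 were called after irradiation (36.4%, near the 34.9% of all genes) and 9 after etoposide (40.9%, beside 34.6%). All 8 and 8 of the 9 were lower, a direction taken by 18.8% and 17.8% of all genes. ODC1, the polyamine synthesis enzyme, fell by 0.71 after irradiation (SE 0.13, 0.0012), and the nucleolar protein gene FBL by 1.17 after etoposide (SE 0.38, 0.029). With thapsigargin 4 were called (24.5% of all genes), 2 in each direction, with the processing factor RRP12 higher by 1.13 ± 0.18 (0.00053) and LDHA lower (-0.75 ± 0.20, 0.015). The median over the 22 was -0.39 after irradiation, -0.32 after etoposide and 0.13 after thapsigargin.

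Genes whose mRNA tracked a member most closely were found by Pearson's r of log2 CPM over the 13 RNA-seq libraries, with 0.5 CPM added before the log. These values describe 5 states measured in shared libraries and carry no test. For ATF3 they were DNAJC6 (0.98), CPEB4 (0.97) and ASB6 (0.97), of which CPEB4 kept 0.95 over the 14 Ribo-seq libraries and ASB6 had 0.01. For FOS they were PTGES (0.89) and EDNRB (0.89), with 0.78 and 0.76 in Ribo-seq, and FLRT1 (0.86). For EGR1 they were FAM117B (0.86), FGF10 (0.85) and GDPGP1 (0.85), with 0.86, 0.75 and 0.62 in Ribo-seq. For JUN they were DEAF1 (0.94), GNG7 (0.92) and LDB1 (0.92), and for MYC SIPA1L3 (0.96), TLE3 (0.96) and DUSP7 (0.95). DEAF1 and TLE3 did not keep their likeness in Ribo-seq, with -0.01 and -0.40.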

How the data were processed

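Ribo-seq footprints and rRNA-depleted RNA were sequenced in 27 libraries. Per the labels' protocols both were taken from cell lysates, and which replicate numbers share a lysate is not given in the sources used here. The authors deposited raw counts per Ensembl gene ID, and the submitters' processing notes name bcl2fastq, STAR 2.7.10b, DESeq2 1.36.0 and hg38; the annotation and read trimming are not given in the sources used here. From the deposited counts the stranded column was taken: the reverse-strand column for RNA-seq and the forward-strand column for Ribo-seq. RNase digestion is given as 40 min per the labels' protocols and as 20 min in the series' design text.

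The files list either 62703 or 60664 gene IDs (the latter in 12 Ribo-seq libraries), and the 60534 shared IDs were used, of which 60461 had a symbol in the reference tables and 19310 are protein-coding. Rows for unmapped, multimapping and ambiguous reads were left out of library sizes. Protein-coding genes passing filterByExpr were fitted in edgeR 4.0.16 (R 4.3.3) with TMM scaling and robust quasi-likelihood dispersion, all 5 states in 1 fit per assay. SE is the absolute log2 fold change over the square root of F. Translational efficiency was the interaction of assay and state over all libraries (11715 genes). The floor for a group at 0 (3 counts) covers counting error only.

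Named pathway genes are up to 3 called genes per list, comparison and assay with the largest change and a mean of at least 1 CPM. The members, gene lists and tests were chosen with earlier results of these data known. Alternatives were DESeq2 1.42.0, its size factors, no low-count filter, unstranded counts, a fit of the compared groups, a replicate block and leaving out each library. The procedure was tested on simulated counts. Promoter sequences are RefSeq's on GRCh38.p14: 8 of 10 members matched, and FOSL1 and MYC are named only.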

Additional observations from a re-analysis of the deposited data

Results flagged for a closer look

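By a direct test between the 2 senescence inducers, 2 of the 10 genes differed in RNA-seq (22.6% of all genes) and 1 in Ribo-seq (22.5%). Both shares of the 10 lay below those of all genes. ATF3 mRNA was lower in irradiated than in etoposide cells by a log2 difference of -0.55 (edgeR adjusted p = 0.006), in 12 of 12 alternatives. JUND mRNA was higher in irradiated cells by 0.83 (edgeR adjusted p = 0.002), also in 12 of 12. MYC footprints were higher in irradiated cells by 0.38 (edgeR adjusted p = 0.024), called in 5 of 12 alternatives. The ATF3 footprint difference between these states, -0.51, did not pass (edgeR adjusted p = 0.06) and was called in 3 of 12 alternatives.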

How the results depend on the processing

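Of the 38 member results called, none reversed in 435 alternative fits, 376 kept their call and 59 lost it. Of 152 uncalled member results, 29 were called in some alternative and 63 changed sign in one, none of them while called. In a fit of the compared groups alone, the members called were 0 in quiescent, 4 in irradiated and 5 in etoposide RNA-seq against cycling cells, 1 and 4 in quiescent and irradiated Ribo-seq, and 3 between irradiated and etoposide Ribo-seq. That last count was 2 with DESeq2, 0 without the low-count filter and 0 with unstranded counts. For translational efficiency after thapsigargin, DESeq2 called 2 members. Over all genes, the fit of the compared groups called 852 in quiescent RNA-seq and 4134 between irradiated and etoposide Ribo-seq. The member counts of these fits were not set against a share of all genes. They therefore do not show whether members were called more or less often than other genes.

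Replicate numbers were not taken to pair libraries, since not every same-numbered pair correlated above 0.1: 10 of 23 RNA-seq pairs, 7 of 26 Ribo-seq pairs and 7 of 13 pairs of RNA-seq with Ribo-seq did. Of those 7, 3 of 3 were etoposide, 2 of 2 cycling and 2 of 3 quiescent. A replicate block called 1 member in etoposide RNA-seq against cycling cells and 1 in irradiated against quiescent RNA-seq, and the replicate block within state called 2 for translational efficiency after thapsigargin. EGR1 is the second of these, at -1.75 (edgeR adjusted p = 0.0167). The member counts under the blocks were likewise not set against a share of all genes.

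Leaving out each library gave 0 to 2 members called in quiescent, 1 to 3 in etoposide RNA-seq against cycling cells and 1 to 2 in irradiated against quiescent RNA-seq. Over all genes the same fits called 707 to 2242, 2612 to 3996 and 1440 to 2809. In Ribo-seq the ranges of members called were 1 to 2 in quiescent, 1 to 2 in irradiated and 2 to 5 in etoposide cells against cycling. They were 1 to 2 in irradiated and 2 to 5 in etoposide cells against quiescent, and 0 to 1 between the senescent states. Over all genes those ranges were 1558 to 2934, 3641 to 4018, 3012 to 3203, 939 to 2389, 3116 to 4570 and 1500 to 2047. For translational efficiency after thapsigargin the range was 1 to 2 members, and 1557 to 3769 over all genes. EGR1 footprints after etoposide ranged from -0.0213 without etoposide replicate 1 to 1.32 without replicate 2. The cause was not tested.

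Over all genes, a fit of the compared groups called 852 in place of 2068 (quiescent RNA-seq), 1512 in place of 3259 (thapsigargin RNA-seq), 6020 in place of 3986 (etoposide Ribo-seq), 4134 in place of 2653 (irradiated against etoposide Ribo-seq) and 1053 in place of 2430 (translational efficiency, thapsigargin). The same fit called 756, 28 and 606 for translational efficiency in irradiated and etoposide against cycling cells and between them, in place of 6, 8 and 0, and DESeq2 called 32, 40 and 6. Depth limits what can be said of FOSB and of the thapsigargin footprints of FOS and EGR1.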
